A study of Mus musculus with 4 samples.

Results

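The integrated stress response was followed through 10 of its genes in cultured mouse hepatocytes that lack the mitochondrial fission protein Drp1. These genes were Atf4, Atf5, Ddit3, Trib3, Asns, Fgf21, Gdf15, Chac1, Sesn2 and Nupr1, and they were found on the arrays as the probes that carry one of these 10 names in the array's own annotation. All 10 were present, on 15 probes, among 37074 gene names on the array, of which 20616 had a probe well above background on at least 1 array. Each of the 10 genes had a probe well above background on all 4 arrays.

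Primary hepatocytes were taken from Drp1LiKO mice and from control mice on a C57BL/6 background. Drp1LiKO mice carry a floxed Dnm1l gene, which encodes Drp1, recombined by Cre under the albumin promoter, so the deletion is aimed at hepatocytes. The controls are labelled wild-type, and the methods name them as Drp1 flox/flox littermates without deletion and all animals as male, with no age given in the sources used here. Cells of each genotype were cultured without palmitate or with 200 μM palmitate, a saturated fatty acid, and the labels place the harvest at 24 h after seeding for all 4 groups. The duration of the palmitate treatment and the vehicle given to the untreated cells were not given in the sources used here for the array cultures.

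Each group had 1 array, so no value below has a replicate check, and a difference between 2 arrays compares those cultures rather than the conditions. Both untreated arrays lay on 1 slide and both palmitate arrays on another, so palmitate and slide cannot be told apart, whereas each slide held both genotypes. The untreated control array is labelled as sharing its raw data with a sample of another series. Dnm1l was lower in Drp1LiKO by a log2 difference of -1.35 untreated and -1.42 with palmitate, on a probe well above background on all 4 arrays. A second, dim Dnm1l probe, well above background on 2 arrays, read -0.35 and 0.22. All 10 hepatocyte markers were well above background on all 4 arrays.

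In the integrated stress response, kinases that sense different kinds of stress phosphorylate the initiation factor eIF2α. General protein synthesis then slows while a few messengers with upstream reading frames, among them those of Atf4 and Atf5, are translated more. ATF4 and its partner CHOP, the product of Ddit3, act on genes for amino acid supply, redox balance, growth control and secreted signals, and in liver the response is known for the hormones FGF21 and GDF15, which are released when mitochondria are disturbed. Since ATF4 is controlled largely at translation, its messenger need not follow its activity.

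A sequence shared by many ATF4 targets is the C/EBP-ATF composite element, whose core was searched as TGATGNAA on both strands of the RefSeq promoter windows (GRCm38.p6), each 250 bases before to 50 bases after a start site. The 10 genes had 12 such windows, and 5 of the 10 genes held the core, against 4.51% of 27025 genes with a window. The excerpts below show these 5 places in the direction of the gene, with the core in capitals.

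Asns, chr6:7693199-7693258, minus strand, core starting at -23 from the start site:
Asns: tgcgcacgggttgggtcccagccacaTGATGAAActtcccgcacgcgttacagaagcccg
Chac1, chr2:119351023-119351082, plus strand, core at -193:
Chac1: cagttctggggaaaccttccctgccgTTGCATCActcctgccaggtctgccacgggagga
Fgf21, chr7:45615596-45615655, minus strand, core at -139:
Fgf21: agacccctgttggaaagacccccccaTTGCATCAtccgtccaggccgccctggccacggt
Nupr1, chr7:126625547-126625606, minus strand, core at -110:
Nupr1: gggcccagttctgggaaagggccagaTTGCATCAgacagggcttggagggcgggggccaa
Trib3, chr2:152344013-152344072, minus strand, core at 15 after the start site:
Trib3: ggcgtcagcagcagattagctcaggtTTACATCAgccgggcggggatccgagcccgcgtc

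The core read in the direction of the gene in Asns and on the opposite strand in the other 4 genes. The cAMP response element TGACGTCA was found in 0 of the 10 genes, against 2.03% of all genes, and the ER stress element in 0 of 10, against 0.137%. Neither of these searches overlaps the first motif. The element is known from genes of this kind, so the count is a description, and a match describes letters in a window rather than a binding site.

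Levels below are log2 values of the processed intensity minus the 75th percentile of the same array, so that 0 marks that percentile, and a difference of 1 between arrays is a 2-fold difference. Levels of different genes come from different probes and were not compared with each other. Probes printed 10 times gave a median SD between repeat spots of 0.03 to 0.04 log2 units on 1 array, a figure for the noise of spots and not of cultures.

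**Figure D1:**
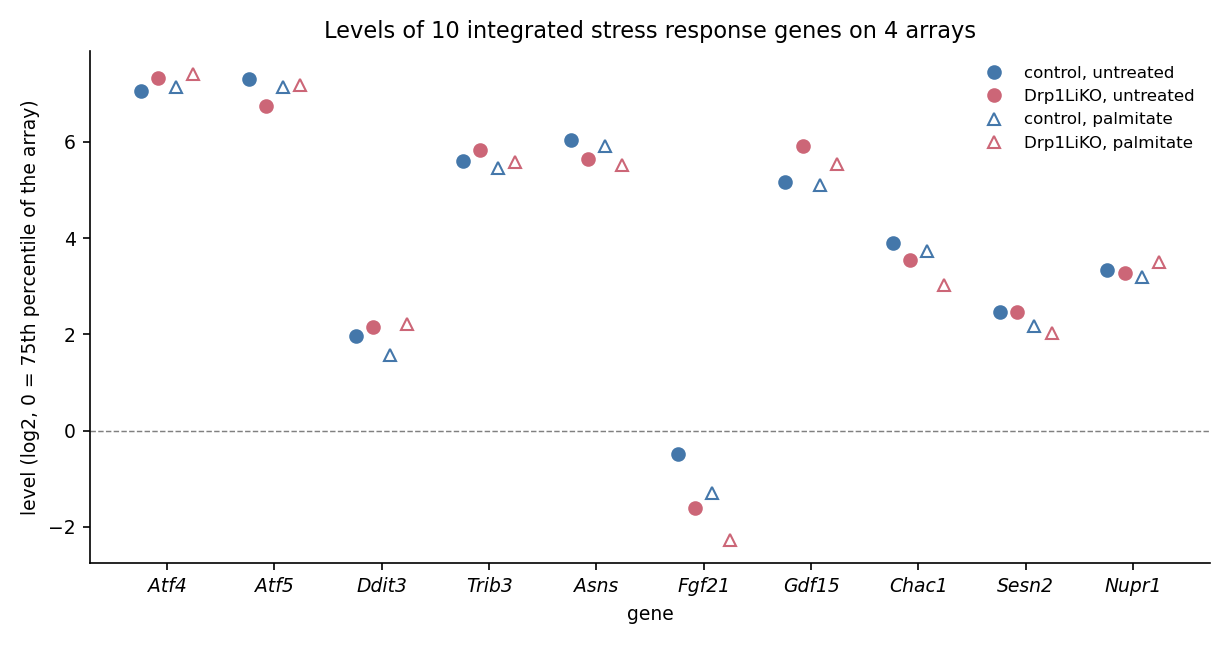
Level of each of the 10 genes on each of the 4 arrays (y axis, log2, 0 being the 75th percentile of the array), 1 point per array, with filled circles for untreated and open triangles for palmitate cultures. Fgf21 lay below 0 on all 4 arrays and had the widest range, 1.77, while the other 9 genes lay above 0 and ranged by no more than 0.88.

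Between the genotypes the 10 genes did not move as a block. Without palmitate 5 were higher and 5 lower in Drp1LiKO, with a median difference of -0.03, and with palmitate 6 were higher and 4 lower, with a median of 0.07. Over all genes well above background on the 4 arrays the medians were -0.04 and -0.05. A difference of at least 2-fold was found for 1 of the 10 genes without palmitate, Fgf21, which was lower in Drp1LiKO. The background was 14.4% of 19876 genes in either direction and 5.6% in the direction of Fgf21. With palmitate the count was 0 of 10, against 11.5% of 18890 genes. At a threshold of 1.5-fold, chosen after the data had been seen, the counts were 2 of 10 (Fgf21 and Gdf15) and 3 of 10 (Fgf21, Chac1 and Ddit3), beside 26.7% and 21.1% of all genes. Averaging the probes of a gene put Atf5 past this threshold untreated, at -0.64, and Ddit3 under it with palmitate, at 0.42.

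Among the transcription factors, Atf4, which drives the response, had levels of 7.05 in untreated control, 7.32 in untreated Drp1LiKO, 7.15 in control with palmitate and 7.41 in Drp1LiKO with palmitate. Both Drp1LiKO arrays thus read above both control arrays, with genotype differences of 0.27 untreated and 0.26 with palmitate. Over the genes well above background on the arrays compared, 46.0% and 40.6% differed by at least as much.

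Atf5, a relative of ATF4 that acts on mitochondrial proteostasis, had levels of 7.32, 6.76, 7.15 and 7.18 in the same order of arrays. The untreated Drp1LiKO array was the low one, and the other 3 arrays lay within 0.17 of each other. The genotype difference was -0.56 untreated and 0.03 with palmitate.

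Ddit3, the gene of the stress factor CHOP, had levels of 1.97, 2.15, 1.57 and 2.21. The control array with palmitate was the low one. Its genotype difference was 0.18 untreated and 0.65 with palmitate, a 1.57-fold difference that 12.1% of genes equalled or exceeded in that comparison. The Ddit3 probe behind these values matches chr10:126732518-126732821 (mm9), a stretch of 304 bases for a probe of 60, so its target crosses at least 1 splice junction. It is shown because the second Ddit3 probe gave other values, described further on.
Ddit3: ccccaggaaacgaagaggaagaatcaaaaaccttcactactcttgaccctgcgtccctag

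Nupr1, a small stress-induced chromatin protein, had levels of 3.35, 3.28, 3.20 and 3.50, and its genotype difference was -0.07 untreated and 0.30 with palmitate. Trib3, a pseudokinase that restrains CHOP and AKT, had levels of 5.61, 5.83, 5.47 and 5.58. Its genotype difference was 0.21 untreated and 0.11 with palmitate. Both genes stayed within a range of 0.36 over the 4 arrays.

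The secreted hormones went in opposite directions. Fgf21, a hormone of fasting and of mitochondrial stress, had levels of -0.49 in untreated control, -1.62 in untreated Drp1LiKO, -1.30 in control with palmitate and -2.26 in Drp1LiKO with palmitate. The untreated control array was the highest and the Drp1LiKO array with palmitate the lowest, and in each culture condition the Drp1LiKO array read below its control. The genotype difference was -1.12 untreated, a 2.18-fold lower level, and -0.97 with palmitate, a 1.95-fold lower level. In these comparisons 6.24% of 17652 genes and 6.02% of 16784 genes differed by at least as much in size.

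Fgf21 was measured by 1 probe, at chr7:52869305-52869364 (mm9), 80.0% of whose 60 bases are A or T. Its processed intensities were 341, 175, 171 and 96.9 in the same order of arrays, below the 75th percentile of each array, which lay between 419.9 and 536.7. With another background correction, normexp, the untreated genotype difference of Fgf21 was -0.90, under the 2-fold threshold, and under quantile normalization the difference with palmitate just reached that threshold.

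Gdf15, a circulating cytokine of mitochondrial and nutrient stress, had levels of 5.17, 5.93, 5.12 and 5.55. Both Drp1LiKO arrays were above both control arrays, by 0.76 untreated, a 1.69-fold difference, and by 0.43 with palmitate. In the untreated comparison 13.0% of genes differed by at least as much.

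Among the metabolic effectors, Asns, which makes asparagine, had levels of 6.04, 5.65, 5.92 and 5.52. It was lower in Drp1LiKO by nearly the same amount in both conditions, -0.39 and -0.40. Chac1, which degrades glutathione, had levels of 3.91, 3.54, 3.74 and 3.03. The Drp1LiKO array with palmitate was the low one, and the genotype difference was -0.37 untreated and -0.71 with palmitate, the latter equalled or exceeded by 10.4% of genes. Sesn2, a stress-induced inhibitor of mTORC1, had levels of 2.46, 2.47, 2.18 and 2.04, with genotype differences of 0.01 and -0.14.

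The genotype differences had the same sign in both conditions for 7 of the 10 genes, the exceptions being Atf5, Nupr1 and Sesn2, whose untreated difference was near 0. Over all genes well above background on the 4 arrays the sign was shared by 13035 of 16611. Across the 10 genes the 2 genotype differences correlated with r = 0.81, and across the 16611 genes with r = 0.81. The points are genes of the same 4 arrays and not independent replicates.

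**Figure D2:**
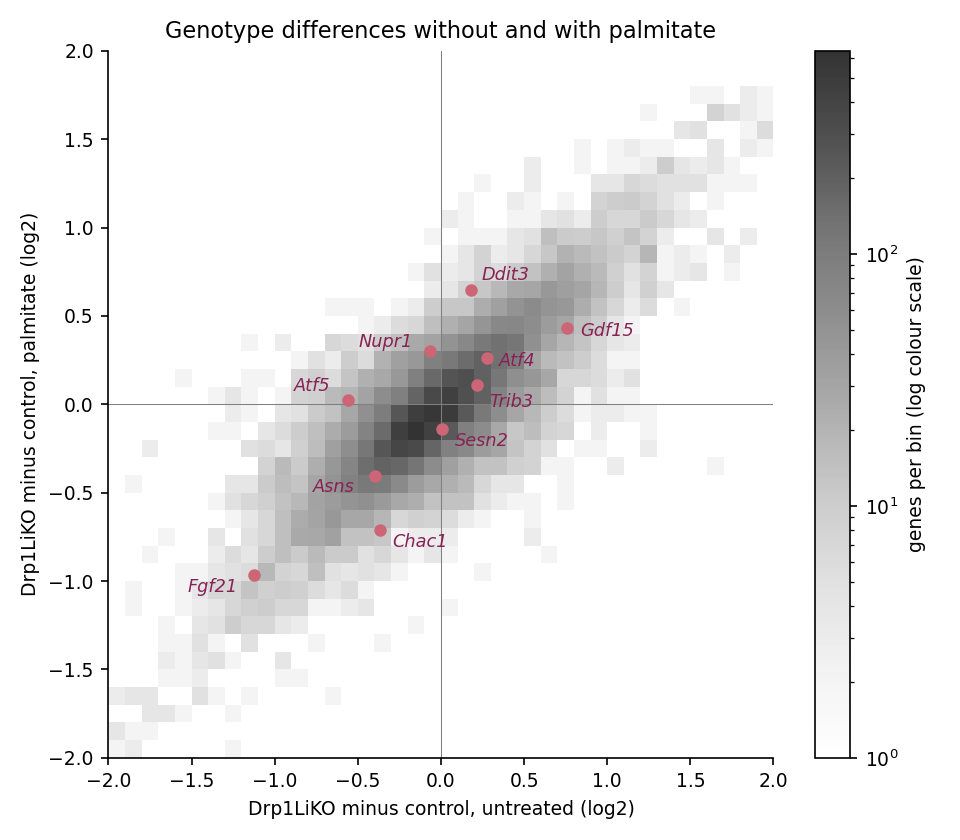
Genotype difference (Drp1LiKO minus control, log2) without palmitate on the x axis and with palmitate on the y axis, the 10 genes as labelled red points and all genes well above background on the 4 arrays as grey bins on a log colour scale, drawn from -2 to 2. Fgf21 lies at the lower left, at -1.12 and -0.97, Gdf15 at the right, at 0.76 and 0.43, and Atf5, Ddit3 and Nupr1 lie above the main cloud's diagonal.

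Marker genes of other liver cells also differed between the genotypes. Of 10 macrophage markers, 7 were well above background on both untreated arrays, with a median difference of 2.40, and 5 on both palmitate arrays, with a median of 1.69. Markers seen only on a Drp1LiKO array are left out of these medians, as they could only be higher there. The sums that follow do include such markers (Clec4f, Vsig4, Lrat, Col3a1, Pdgfrb and Lyve1), so they are a description only. The summed level of the 9 measured macrophage markers, in multiples of the array's 75th percentile, was 7.78 and 9.54 on the control arrays and 28.2 and 26.5 on the Drp1LiKO arrays. It was mostly Cd68, which differed by 2.01 untreated and 1.69 with palmitate. For 7 stellate cell markers the sum was 1.08 and 1.23 in control against 11.1 and 13.3 in Drp1LiKO, and for 8 endothelial markers 1.54 and 1.49 against 4.61 and 3.23. The stellate sum in Drp1LiKO was mostly Dcn, which differed by 4.19 and 4.04, whereas Col1a1 differed by 0.94 and 0.79. The sum of 4 cholangiocyte markers went the other way, 61.2 and 57.6 in control against 42.2 and 44.0 in Drp1LiKO, but it was mostly Spp1. Spp1 differed by -0.60 untreated and -0.41 with palmitate, and Krt19 by -0.37 and -0.40. Sox9 was higher in Drp1LiKO by 0.45 and 0.21. Krt7 read 1.47 untreated, where it was not well above background in control, and -0.46 with palmitate. Neutrophil markers (3 measured) summed to between 34.6 and 41.6 and lymphocyte markers (3 measured) to between 0.54 and 0.77 on the 4 arrays. The neutrophil sum was nearly all Csf3r, which differed by 0.06 in both conditions. Ly6g was well above background on the Drp1LiKO arrays only. S100a8 passed on the palmitate arrays only, 2.39 higher in Drp1LiKO. The lymphocyte sum was mostly Cd3e, which differed by -0.09 untreated and -0.21 with palmitate. Cd79a and Ms4a1 were well above background on the Drp1LiKO array with palmitate only.

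The 10 hepatocyte markers summed to between 1304 and 1333, but single ones differed between the genotypes, with a median of 0.22 in each condition. Tat, an enzyme of tyrosine breakdown, differed by 1.499 untreated and 1.22 with palmitate, Cps1 of the urea cycle by 0.94 and 1.11, and Cyp2e1, a cytochrome P450, by -0.66 and -0.72. With palmitate against untreated the median of the macrophage markers well above background on both arrays was 0.27 over 5 markers in control and -0.67 over 8 in Drp1LiKO. These medians cover different markers and cannot be compared. C1qa and C1qb, at -3.05 and -1.41 in control, were left out there because they were not well above background with palmitate. On the 5 markers of the control median, Drp1LiKO read 0.80 (Adgre1), -0.15 (Cd68), 0.10 (Csf1r), 2.77 (Marco) and -3.08 (Cd5l). The part of all these markers in the differences of the 10 genes was not tested, and in these cultures fewer cells of a type and less RNA per cell cannot be told apart.

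Palmitate differences were mostly small for the 10 genes, and palmitate coincides with slide. In control 9 of 10 were lower with palmitate, with a median difference of -0.16. In Drp1LiKO 6 of 10 were lower, a share not far from that of all genes, with a median of -0.19. Of all genes, 9180 of 18772 were lower in control (median 0.005) and 9884 of 19748 in Drp1LiKO (median -0.0003). A difference of at least 2-fold was found for 0 of 10 genes in control, against a background of 5.71% of 18772 genes, and for 0 of 10 in Drp1LiKO, against 7.03% of 19748 genes. At 1.5-fold the count was 1 of 10 in each genotype, Fgf21, beside 10.5% and 14.1% of all genes. With normexp background correction the difference of Fgf21 in Drp1LiKO was -0.42, under this threshold.

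The palmitate difference of Fgf21 was -0.80 in control and -0.65 in Drp1LiKO. In control 1.98% of 16829 genes differed by at least as much, and in Drp1LiKO 6.86% of 17853 genes. Sesn2 was lower by -0.28 and -0.43, Trib3 by -0.14 and -0.24, Asns by -0.12 and -0.13, Chac1 by -0.16 and -0.51, and Gdf15 by -0.05 and -0.38, the value for control being given first. Atf4 was higher by 0.10 and 0.09. For these 7 genes the sign was the same in both genotypes.

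For the other 3 genes the palmitate difference had opposite signs in the genotypes, and the share of all genes with opposite signs was not counted. For Atf5 it was -0.17 in control and 0.42 in Drp1LiKO. Ddit3 was lower by -0.41 in control and read 0.06 higher in Drp1LiKO, and Nupr1 read -0.15 and 0.22. The palmitate difference in Drp1LiKO minus that in control was 0.59 for Atf5, which 7.04% of 16611 genes equalled or exceeded in size, 0.46 for Ddit3 (11.0% of genes) and 0.37 for Nupr1 (16.5% of genes). With 1 array per group this difference of differences was not tested.

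**Figure D3:**
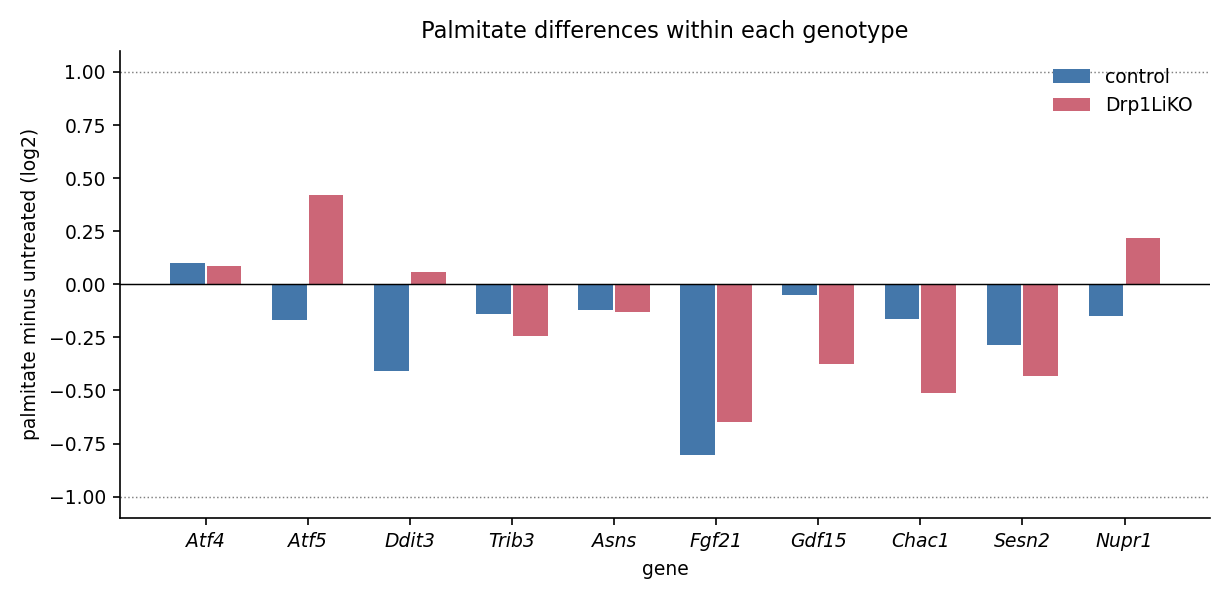
Palmitate difference (palmitate minus untreated, log2) of the 10 genes in control (blue bars) and in Drp1LiKO (red bars), each bar the difference of 2 arrays with no error available, and dotted lines at a 2-fold difference. No bar reaches the dotted lines, Fgf21 has the longest bars, -0.80 and -0.65, and the bars of Atf5, Ddit3 and Nupr1 point in opposite directions.

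A second probe well above background on all 4 arrays was available for Atf4, Atf5, Ddit3 and Asns. For Atf5 the second probe gave genotype differences of -0.71 untreated and 0.03 with palmitate, and palmitate differences of -0.17 in control and 0.57 in Drp1LiKO, so both probes carried the pattern of the gene. For Asns it gave genotype differences of -0.28 and -0.41, and for Atf4 0.17 and 0.29, with the sign of the first probe in each comparison. For Ddit3 the second probe, at chr10:126731579-126731638 (mm9), read 0.59 untreated and 0.19 with palmitate between the genotypes, the reverse order of the first probe. Its palmitate differences were -0.05 in control and -0.45 in Drp1LiKO, so the opposite signs of Ddit3 between the genotypes were seen on 1 of its 2 probes. It is annotated to another transcript than the first probe and was dimmer, with intensities between 161 and 320. The second probe of Nupr1 was not well above background on any array.

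**Figure D4:**
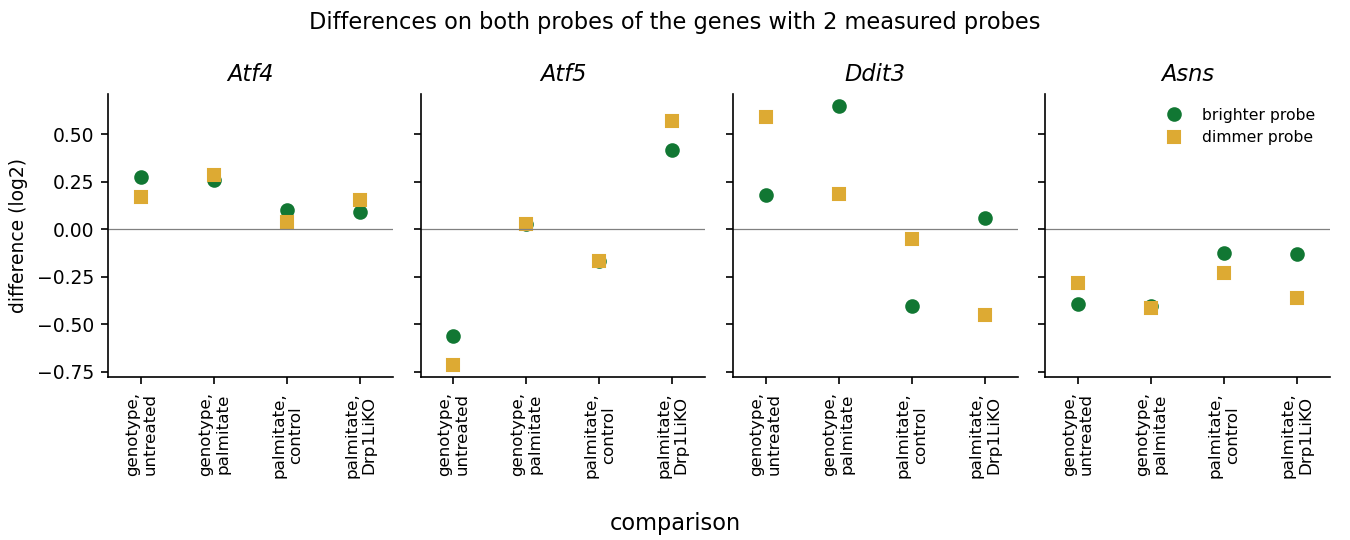
Log2 difference in the 4 comparisons (x axis) on both probes of the 4 genes for which 2 probes passed the background filter on every array, green circles for the brighter probe that stands for the gene and yellow squares for the dimmer one. The symbols lie within 0.23 of each other for Atf4, Atf5 and Asns, while for Ddit3 they lie between 0.35 and 0.51 apart.

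Over all 4 arrays, an additive model with genotype and palmitate was fitted in limma. Its error comes from the departure of the 4 arrays from additivity, pooled over genes, and does not measure a spread between cultures or animals. None of the 10 genes, and 0 of 20616 genes, passed an adjusted p of 0.05 for either term, a background of 0%. At an unadjusted p under 0.05 there were 5366 genes for genotype, among them Fgf21, Asns and Gdf15, and 1989 genes for palmitate, among them Fgf21 and Sesn2. The genotype term was -1.04 ± 0.0872 (SE) for Fgf21, with an adjusted p of 0.122 in limma. It was -0.40 ± 0.0693 for Asns (limma adjusted p 0.154) and 0.60 ± 0.131 for Gdf15 (limma adjusted p 0.176).

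The model leaves 1 residual degree of freedom, and these calls changed with the settings. Fgf21 passed for genotype with normexp background correction (limma adjusted p 0.0408), where 1513 of 20616 genes were called. It also passed when only genes that passed the background filter on every array were fitted (limma adjusted p 0.0204). There 2525 of 16611 genes were called. No other of the 10 passed in either fit. With a spread that follows intensity, 25.6% of the 20616 genes were called for genotype and 5 of the 10 were among them, namely Fgf21 (adjusted p 0.00235), Asns (0.0038), Gdf15 (0.0063), Atf4 (0.00663) and Chac1 (0.0133). For palmitate 0.461% of genes and 0 of the 10 were called.

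Other genes of the pathway were taken as 6 lists with 67 genes, all of which had a probe above background on at least 1 array. At least 2-fold genotype differences were found for 3 of 67 without palmitate and 2 of 66 with palmitate, below the 14.4% and 11.5% of all genes. Between palmitate and untreated cultures 0 of 66 and 0 of 67 reached 2-fold, beside 5.71% and 7.03% of all genes. Creb3l3, a liver factor that acts on Fgf21 and lipid genes, had genotype differences of 1.17 untreated and 1.21 with palmitate. Ddit4, an inhibitor of mTORC1, was higher by 1.11 untreated and by 0.18 with palmitate. Cbs, which condenses homocysteine with serine, was lower by -0.95 and -1.12. Stc2 was the third of the untreated genes and was well above background on the untreated Drp1LiKO array only, at least 1.12-fold higher than control.

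Upstream of ATF4, the 4 eIF2α kinases differed little between the genotypes. Eif2ak1, the kinase HRI that responds to mitochondrial stress, differed by 0.12 and 0.11, and Eif2ak3, the kinase PERK of the endoplasmic reticulum, by -0.19 and -0.19. Eif2ak4, the amino acid sensor GCN2, differed by 0.04 and 0.03. Eif2ak2, the kinase PKR that binds double-stranded RNA, differed by -0.23 and -0.10, and its palmitate differences were 0.43 in control and 0.57 in Drp1LiKO.

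Ppp1r15a, which encodes the inducible phosphatase subunit GADD34, read above control in both Drp1LiKO cultures, by 0.88 without palmitate and 0.63 with it, whereas its constitutive relative Ppp1r15b differed by -0.01 and -0.11. Impact, an inhibitor of GCN2, was higher by 0.68 and 0.64. Oma1, the inner-membrane protease that cleaves DELE1, was lower by -0.46 and -0.44, and Dele1, listed under an older name on the array, differed by -0.17 and 0.00. Eif2s1, which encodes eIF2α itself, differed by -0.04 and -0.14, and Eif2b5, a subunit of its exchange factor, by -0.20 and -0.04.

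A list of 12 enzymes of serine, one-carbon, proline and related metabolism was taken, which was not tested as a set. Of these, 10 were lower in Drp1LiKO in each condition, with medians of -0.44 untreated and -0.44 with palmitate, while 10380 of 19876 and 10191 of 18890 genes in all were lower, with medians of -0.02 and -0.03. At least 2-fold lower were 0 and 1 of the 12, beside 5.6% and 4.27% of all genes. The following examples were chosen after their values were seen. Phgdh, the first enzyme of serine synthesis, differed by -0.62 and -0.50, and Psat1, the next one, by -0.74 and -0.76. The exceptions were Mthfd2 (0.46 and 0.03) and Cth (0.21 and 0.10). With palmitate all 12 read lower in both genotypes, with medians of -0.18 in control and -0.22 in Drp1LiKO and a lowest value of -0.60. Of all genes, 9180 of 18772 in control and 9884 of 19748 in Drp1LiKO were lower, and palmitate coincides with slide.

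The 9 amino acid transporters had median genotype differences of -0.14 and -0.14, with 6 and 7 of 9 lower. The 13 genes of the aminoacyl-tRNA synthetase list had medians of -0.09 and -0.05. With palmitate 12 of 13 were lower in each genotype, by medians of -0.09 and -0.07, beside 9180 of 18772 and 9884 of 19748 genes in all. The 9 partner and stress transcription factors had medians of 0.09 and 0.07. The 13 other targets of ATF4 or CHOP had medians of -0.02 and 0.15. Examples from both lists, chosen after their values were seen, went both ways. Atf3 differed by 0.65 and 0.53, Vegfa by 0.77 and 0.82, and Vldlr by 0.63 and 0.61. Jdp2 differed by -0.57 and -0.66, and Bbc3 by -0.77 and -0.18. These lists were not tested as sets either.

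**Figure D5:**
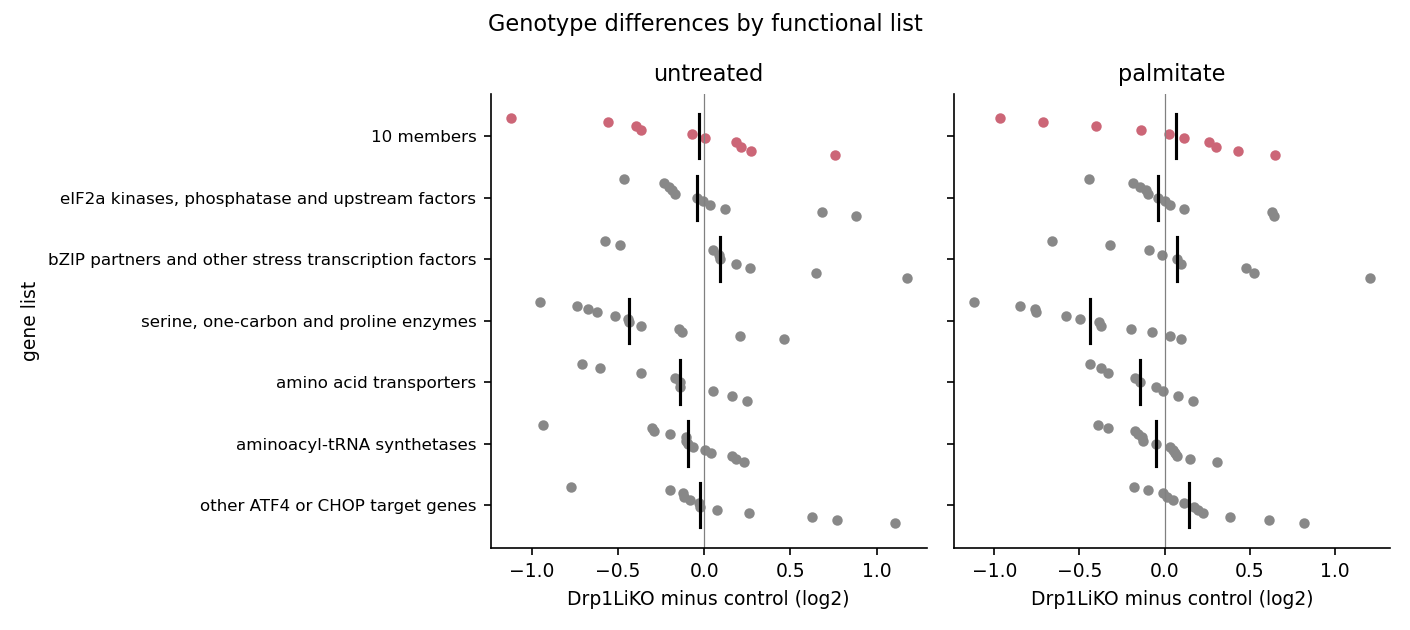
Genotype difference (x axis, Drp1LiKO minus control, log2) without palmitate (left) and with palmitate (right) for the 10 genes in red and the 6 wider lists in grey, 1 point per gene well above background on all 4 arrays, with the list's median as a black bar. The list of serine, one-carbon and proline enzymes has its median at -0.44 in both panels, and the 10 genes spread to both sides of 0.

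Fgf21 had the widest range of the 10 genes, and the genes whose pattern lay closest to it were sought among 16611 genes by the Euclidean distance of the 4 mean-centred levels. The nearest 5 were Sema4d, at a distance of 0.0995, Tinagl1 (0.229), Gsg1 (0.237), Igfbp1 (0.270) and Mtcl1 (0.271). Igfbp1, a hepatocyte-secreted binding protein of insulin-like growth factors, had levels of 4.15, 3.32, 3.54 and 2.74, again highest in untreated control and lowest in Drp1LiKO with palmitate. Within the 10 genes the nearest to Fgf21 was Chac1, at a distance of 0.683, and the closest pairs were Atf4 with Nupr1 (0.250), Trib3 with Sesn2 (0.284) and Asns with Chac1 (0.304). The distance is not scaled, so genes that vary little lie close whatever their pattern. Atf4 and Nupr1 had untreated genotype differences of opposite sign, 0.27 and -0.07.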

How the data were processed

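Total RNA of primary hepatocytes was amplified, labelled with Cy3 and hybridised to an Agilent mouse oligonucleotide array of 62976 spots, 1 array for each of 4 groups taken from the labels. The labels and the methods name different RNA extraction kits. The deposited scanner output is linear intensity, which the authors obtained with Agilent Feature Extraction (10.7.1.1 per the file headers, 9.5.1.1 per the labels), background-subtracted and not scaled between arrays. The deposited value table, also an intensity on a linear scale, was made by the authors with quantile normalization as judged from its values, and served as an alternative.

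Control spots and outlier spots were left out, repeat spots averaged, and log2 of the processed signal was taken minus the 75th percentile over the spots of each array. No spot was saturated (0 on each array). Well above background were 44.7% to 51.1% of 56605 probes, and 1 array per group limits the precision. A gene was represented by its probe with the highest mean level among probes that the scanner software marked well above background somewhere. A gene counted as different in a pair when its log2 values lay at least 1 apart and either array carried that mark. The lower bound of a probe dim on 1 array was taken against the lowest value well above background there. The additive model used limma 3.58.1 in R 4.3.3 (lmFit, eBayes, two-sided, Benjamini-Hochberg over all genes) and was tested on simulated data. Tables were handled in Python 3.11.15 with pandas 2.3.3.

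Named were the 10 genes, Dnm1l, the list of eIF2α kinases, phosphatase and upstream factors, wider-list genes at least 2-fold apart with the mark on each of the paired arrays, and the genes nearest to Fgf21. Further genes of the wider lists are examples chosen after their values were seen. The members, the lists and the rules were chosen with earlier results of these data known. Probe positions are those of the array files (mm9), and promoter windows are RefSeq's on GRCm38.p6; the exons hit by the probes were not determined here. Alternatives were normexp with an offset of 50, the value table, quantile normalization, median scaling, other background filters and averaging of probes.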

Additional observations from a re-analysis of the deposited data

Results flagged for a closer look

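Opposite signs of a difference in the compared groups were seen for 4 of the 10 genes, each resting on 1 array per group, and in none of them was the difference tested. Over all genes well above background on the 4 arrays, 13035 of 16611 kept the sign of the genotype difference. For the palmitate difference the share was not counted, so 4 of 10 has no background beside it. The palmitate difference in Drp1LiKO minus that in control was 0.59 for Atf5, 0.46 for Ddit3 and 0.37 for Nupr1. Atf5 showed it on both of its probes and Ddit3 on 1 of its 2 probes, and the second Nupr1 probe was not well above background. For Sesn2 the genotype difference with palmitate minus that without was -0.15, and its untreated difference was 0.01, so the opposite signs rest on a value near 0. Groups of 1 array allow no search for outlying samples.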

How the results depend on the processing

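Each of the 40 differences of the 10 genes was recomputed under 9 alternatives, and 38 kept their sign under all of them. The exceptions were Sesn2 untreated between the genotypes, at -0.00 with median scaling and -0.02 with the 75th percentile taken over probe averages, and Ddit3 with palmitate in Drp1LiKO, at -0.20 when its probes were averaged. Part of this count was fixed in advance. All 10 genes were well above background on all 4 arrays, so the other background filters and a floor could not change their values. Averaging of probes could change only Atf4, Atf5, Ddit3 and Asns. The value table was itself judged to be quantile-normalized. Of the recomputed counts, the calls of the model included, 89 were unchanged or within 1.5 times and 15 moved further. The 89 include counts of 0 that stayed 0 and counts of the 10 genes that the filters could not change. The 10 genes gave 0 in place of 1 untreated with normexp and 1 in place of 0 with palmitate under quantile normalization, and the wider list gave 1 in place of 0 for palmitate in control without a filter. At 1.5-fold in place of 2-fold, chosen after seeing the data like the percentile over probe averages, the 10 genes gave 2 untreated and 3 with palmitate between the genotypes and 1 for palmitate in each genotype. The wider list gave 16 and 10 between the genotypes and 5 for palmitate in Drp1LiKO, and 1 of the 10 genes reached this size in the difference of differences. In limma the genotype term called 0 genes in the fit reported, 1513 with normexp, Fgf21 among them, 2525 over genes well above background on all 4 arrays, again with Fgf21 as the 1 of the 10, and 5275 with a spread that follows intensity. The palmitate term called 95 with that spread and 0 under the other alternatives (1989 at an unadjusted p under 0.05 in the fit reported). No paired analysis was possible because the labels give no replicate numbers, beyond the additive fit itself, whose palmitate term is also the slide that holds both genotypes. Leaving out an array would remove a group. The spread between animals or cultures was not measured, and slide and palmitate coincide.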
